A study of Mus musculus with 6 samples.

Results

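The genes of glycolysis and of pyruvate handling were followed in ciCPCs, expandable cardiovascular progenitor cells that were chemically induced from mouse fibroblasts, at passage 3 and at passage 20. The set holds 38 genes of the 53801 in the count files, chosen by name: the isozymes of each step from glucose uptake to lactate, the enzymes that decide whether pyruvate enters the mitochondrion, and the transporters of lactate and pyruvate. All 38 were found and all 38 passed the filter on low counts. RNA was sequenced from 3 samples at passage 3 (early) and 3 at passage 20 (late). Both groups were wild-type cells of a mixed C57BL/6 and 129J/SvE background and were labelled cardiac progenitors. They had been expanded after colonies were picked at day 14 of reprogramming, in a basal medium that held the growth factors BMP4 and Activin A together with the small molecules CHIR99021 and SU5402, so every library shares this medium. The series was collected to characterise the cells over long-term expansion, and the comparison made here is passage 20 against passage 3. The labels name no batch, so passage and any batch of culture, harvest or library cannot be told apart. They also do not say that the 3 samples of a passage were separate cultures, so the p-values rest on the spread between libraries of a passage, and this may be technical only.

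Glycolysis splits glucose into pyruvate in the cytosol, and many of its steps are served by several isozymes encoded by separate genes. Hexokinase, phosphofructokinase and pyruvate kinase catalyse the steps that are effectively irreversible. Pyruvate is then either reduced to lactate and exported, or carried into the mitochondrion and oxidised by the pyruvate dehydrogenase complex, which its kinases switch off by phosphorylation. In the heart, cardiomyocytes change from reliance on glucose to oxidation of fatty acids after birth, and the muscle isozymes of several steps are markers of that mature tissue.

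Libraries held 11387738 to 17721788 counts in genes. Values are CPM, counts scaled to a common library size, after TMM scaling, which weights the libraries so that most genes are level. The labelled cell type was checked against 10 cardiac progenitor genes. All 10 were detected, and 6 were called higher and 4 lower at passage 20. Those higher were Gata4, Gata6, Hand1, Hand2, Mef2c (mean 39.1 to 104.7 CPM) and Nkx2-5, which was scarce (1.15 to 5.24 CPM). Those lower were Tbx5, Kdr, Pdgfra (328 to 134 CPM) and Isl1, which fell from a mean of 63.2 to 7.45 CPM. Passage 20 replicate 3 stood apart from the other libraries of its passage: the chi-square per degree of freedom between its gene counts and theirs was 10.2 and 8.43, against 2.01 between passage 20 replicates 1 and 2 and 1.76 to 2.65 between the passage 3 replicates. Without this library, 31 members were called higher and 5 lower, and the calls over all genes went from 5604 higher and 5641 lower to 6103 and 6266. The single member whose call changed was Mpc1, given with both values beside its result. In the other pathway lists, counts of calls moved by at most 1 gene.

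Of the 38 genes, 30 were called higher at passage 20, 5 were called lower and 3 did not pass the test (edgeR's quasi-likelihood test, Benjamini-Hochberg adjusted p over 15143 genes, threshold 0.05). Of all tested genes, 74.3% were called in one direction or the other. The members called higher made 78.9% of the set, whereas 37.0% of all tested genes were called higher. The 5 called lower made 13.2% of the set, against 37.3% of all tested genes. The 5 were the insulin-responsive transporter Slc2a4, the muscle mutase Pgam2, the bisphosphoglycerate mutase Bpgm, the muscle enolase Eno3 and the kinase Pdk2. The genes that did not pass were Pfkfb4, Mpc1 and Mpc2. At least 2-fold rises were seen for 23 members, and 9 of these were at least 4-fold. Of all genes, 13.4% were called and at least 2-fold higher. A single member, Bpgm, was at least 2-fold lower, as were 14.3% of all genes. The median fold change of the members was 1.56 on the log2 scale, and that of all tested genes was -0.01. The values of the passages did not overlap in 36 members, against 77.5% of all genes, and 31 of the 36 were higher at passage 20.

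The choice of scaling shifted every value by a similar amount. With library sizes only, the median of all genes moved from -0.01 to -0.34, the members' median was 1.23, and 26 members were called higher, 8 lower and 4 neither. The 5 genes that moved across a call had small changes: Pdhb, Dlat and Pfkfb4 were called lower with library sizes only, and Ldhb and Pfkfb2 were no longer called.

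Together the 38 genes took 0.834, 0.939 and 0.987% of all gene counts in passage 3 replicates 1, 2 and 3, and 2.72, 2.72 and 2.62% in the passage 20 replicates. The means were 0.920% ± 0.0786 (SD, n = 3) and 2.69% ± 0.0606 (SD, n = 3), a rise of 1.77 percentage points. The passages did not overlap, and the two-sided exact permutation test gave p = 0.1, the smallest that 3 against 3 samples allow. In bulk RNA, fewer cells of a type and less RNA per cell cannot be told apart.

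**Figure D1:**
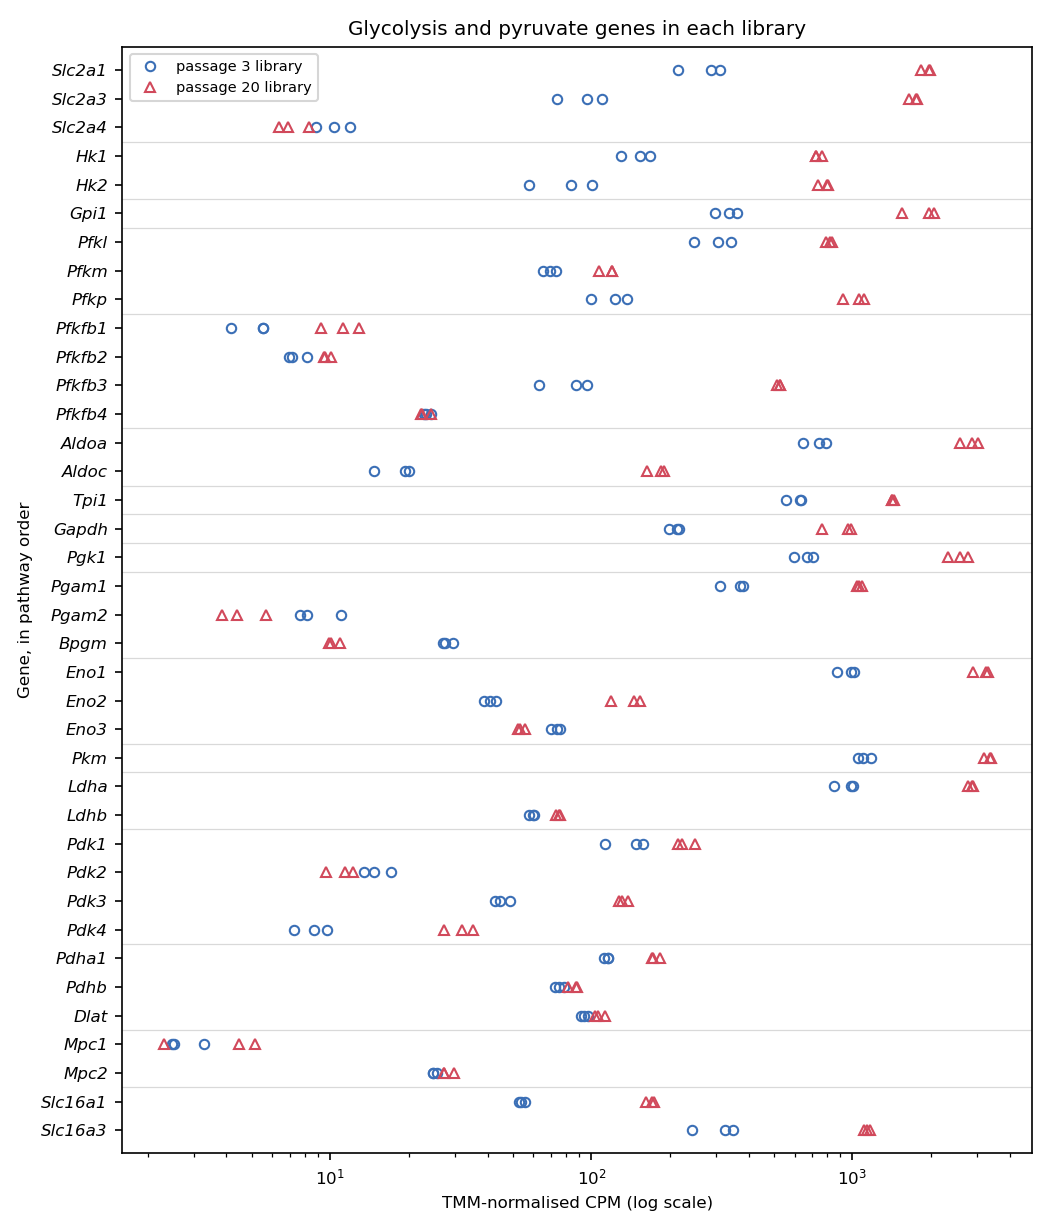
TMM-normalised CPM (log axis) of each of the 38 genes in pathway order, with 1 circle per passage 3 library and 1 triangle per passage 20 library. The triangles lie to the right of the circles in 31 genes, to the left in 5, and overlap them in Pfkfb4 and Mpc1.

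**Figure D2:**
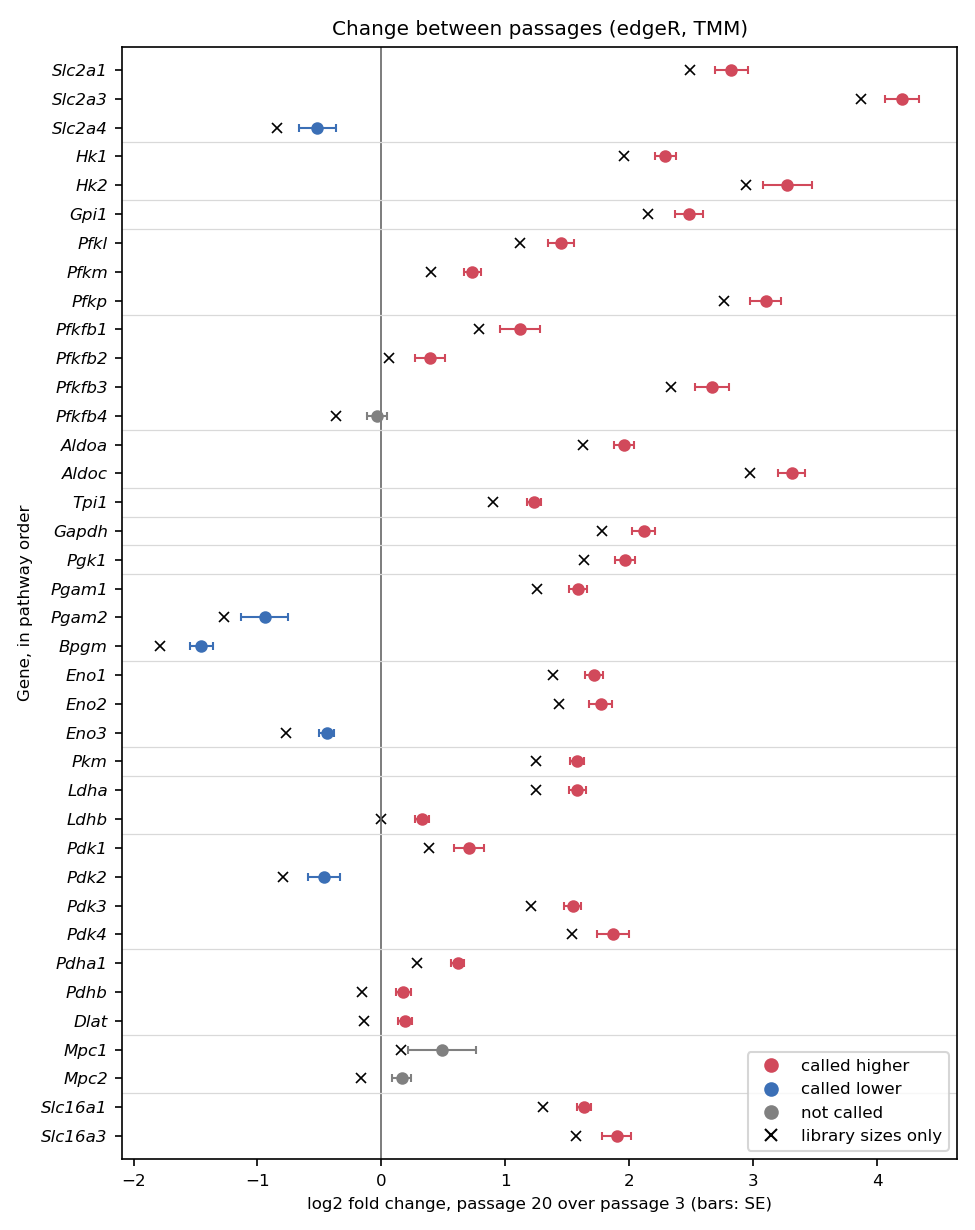
Log2 fold change of each gene, passage 20 over passage 3, from edgeR, with bars of 1 standard error and colours for the call. Crosses give the fold change with library sizes only, which lies lower for every gene and changes sign, from above to below 0, for Ldhb, Pdhb, Dlat and Mpc2.

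The promoters of Slc2a1, Hk2, Pfkp and Bpgm, each with a single window, are shown. The reason is that many glycolytic genes are known targets of the hypoxia-inducible factors, which bind a short core motif. Slc2a3 (18.4-fold) and Aldoc (9.91-fold) rose more than the genes shown. The windows are RefSeq promoters on GRCm38.p6, from 250 bases before to 50 bases after the start, written 5′ to 3′ on the gene's strand. Capitals mark ACGTG or GCGTG on either strand. The genes are Slc2a1 (ENSMUSG00000028645, chr4:119108495-119108794, plus strand), Hk2 (ENSMUSG00000000628, chr6:82774405-82774704, minus strand), Pfkp (ENSMUSG00000021196, chr13:6648722-6649021, minus strand) and, for the largest fall, Bpgm (ENSMUSG00000038871, chr6:34476106-34476405, plus strand).
Slc2a1: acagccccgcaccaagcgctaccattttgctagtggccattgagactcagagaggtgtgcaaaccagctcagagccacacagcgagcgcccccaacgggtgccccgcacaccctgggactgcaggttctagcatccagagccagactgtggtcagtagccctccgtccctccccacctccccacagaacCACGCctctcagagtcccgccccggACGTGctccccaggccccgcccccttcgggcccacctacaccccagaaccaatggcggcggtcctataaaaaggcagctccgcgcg
Hk2: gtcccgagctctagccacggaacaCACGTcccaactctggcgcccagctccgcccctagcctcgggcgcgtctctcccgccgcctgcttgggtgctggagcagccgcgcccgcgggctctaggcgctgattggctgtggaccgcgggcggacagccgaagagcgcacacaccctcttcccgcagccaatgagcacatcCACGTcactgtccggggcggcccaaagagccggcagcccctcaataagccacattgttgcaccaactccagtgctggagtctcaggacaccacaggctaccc
Pfkp: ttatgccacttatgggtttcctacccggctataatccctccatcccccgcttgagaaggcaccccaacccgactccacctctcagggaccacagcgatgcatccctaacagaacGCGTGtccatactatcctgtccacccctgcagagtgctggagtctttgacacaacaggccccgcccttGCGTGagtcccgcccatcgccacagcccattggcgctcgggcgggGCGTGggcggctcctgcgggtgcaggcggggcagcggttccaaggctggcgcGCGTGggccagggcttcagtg
Bpgm: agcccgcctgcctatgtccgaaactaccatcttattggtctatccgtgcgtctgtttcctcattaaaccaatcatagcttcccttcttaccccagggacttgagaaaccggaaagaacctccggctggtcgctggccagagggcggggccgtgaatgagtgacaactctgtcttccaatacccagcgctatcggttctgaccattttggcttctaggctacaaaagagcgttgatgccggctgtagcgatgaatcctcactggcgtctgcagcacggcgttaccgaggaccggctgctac
Slc2a1 and Hk2 each held 2 matches, Pfkp held 4 and Bpgm held 0. Over the whole set, 36 of the 38 genes had at least 1 window, 56 windows in all. The motif occurred in 71.4% of these windows and in 43.8% of all 32851 windows in the table. In the windows of genes called higher it occurred in 74.5%, and in those of the other members in 55.6% (5 of 9). ACGTG alone, which also lies within the E-box CACGTG, was in 39.3% of the members' windows and in 19.6% of all. The E-box was in 10.7% and 7.15%. The members' windows were also richer in G and C, with a median of 60.8% against 52.7%, and the part of this in the motif's frequency was not tested. A match describes the letters only and is not evidence that a factor binds.

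Glucose uptake and phosphorylation were the steps with the largest rises in summed level. Slc2a1 encodes GLUT1, the broadly expressed glucose transporter. It was at 214, 287 and 312 CPM in the passage 3 replicates and at 1975, 1959 and 1829 CPM in the passage 20 replicates. Every late library was far above every early one. The mean rose from 271 ± 50.7 to 1921 ± 80.1 CPM (SD, n = 3 each), 7.08-fold (log2 fold change 2.82, SE 0.13, edgeR adjusted p = 3.72e-07). Slc2a3 encodes GLUT3, a transporter with high affinity for glucose that is best known from neurons. It measured 74.1, 96.0 and 110 CPM early and 1766, 1755 and 1644 CPM late. This 18.4-fold rise was the largest of the 38 genes (log2 fold change 4.20, SE 0.14, edgeR adjusted p = 4.08e-08). Slc2a4 encodes GLUT4, the insulin-responsive transporter of muscle and fat. It was low in all libraries, at 11.8, 8.81 and 10.3 CPM early and 6.34, 6.86 and 8.30 CPM late. Its fall was 1.43-fold (SE 0.15 on the log2 scale, edgeR adjusted p = 0.00915), and the highest late library was just below the lowest early one.

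Hk1 encodes the housekeeping hexokinase and Hk2 the inducible form that prevails in muscle and fat. Hk1 measured 130, 153 and 168 CPM early and 723, 723 and 764 CPM late. Hk2 measured 57.5, 83.3 and 101 CPM early and 735, 798 and 809 CPM late. Both genes separated the passages fully, and in both the first early library was the lowest. Hk1 rose 4.89-fold (edgeR adjusted p = 5.13e-09) and Hk2 rose 9.68-fold (edgeR adjusted p = 8.81e-06). Gpi1, the glucose phosphate isomerase that makes fructose phosphate, rose from 331 ± 32.4 to 1853 ± 263 CPM (SD, n = 3 each), 5.59-fold. Its late libraries held 2047, 1959 and 1553.5 CPM, with replicate 3 the lowest. Of Gpi1's coding transcript, 25.3% of the stretches of 50 bases also occur in transcripts of other genes.

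Phosphofructokinase, the committed step, is formed from liver (Pfkl), muscle (Pfkm) and platelet (Pfkp) subunits, and all 3 rose by different amounts. Pfkp measured 99.6, 123 and 137 CPM early and 1103, 1064 and 922 CPM late. It rose 8.58-fold (log2 fold change 3.10, SE 0.12, edgeR adjusted p = 8.66e-08). Pfkl rose 2.73-fold, from 248, 306 and 342 CPM to 795, 824 and 832 CPM (edgeR adjusted p = 1.69e-06). Pfkm rose 1.66-fold, from 65.3, 69.4 and 73.4 CPM to 120, 119 and 107 CPM (edgeR adjusted p = 2.49e-06). No early library of any of these genes reached a late one. Pfkp shares 748 bases of exon with Pitrm1 on the other strand, and the sources used here do not say whether counting used strand, so reads from the shared stretch cannot be assigned. Exon overlaps with a gene on the other strand also exist for Slc2a1, Hk1, Gpi1, Pfkm, Aldoa, Tpi1, Gapdh, Pdha1 and Mpc1.

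The 4 PFKFB genes encode bifunctional enzymes that make and remove the main allosteric activator of phosphofructokinase. Pfkfb3, the form in which the kinase activity prevails, measured 63.2, 87.3 and 96.1 CPM early and 512, 529 and 528 CPM late, a 6.35-fold rise (log2 fold change 2.67, SE 0.14, edgeR adjusted p = 1.11e-06). The other 3 stayed at or below 24.4 CPM in every library. Pfkfb1, the liver and muscle form, rose 2.17-fold, from 4.18, 5.54 and 5.51 CPM to 9.21, 12.8 and 11.2 CPM (edgeR adjusted p = 7.59e-05). It overlaps Apex2 on the other strand, which held 1689 counts over the 6 libraries against 623 for Pfkfb1. Pfkfb2, the heart form, was at 7.16, 8.13 and 6.93 CPM early and 10.1, 9.55 and 9.45 CPM late, called 1.31-fold higher with TMM scaling (edgeR adjusted p = 0.0115) but not with library sizes only. That call was also lost without passage 3 replicate 3, where the log2 fold change was 0.33. Pfkfb2 overlaps Yod1 on the other strand, with 822 counts against its own 695. Pfkfb4, the form first described in testis, measured 23.3, 22.9 and 24.4 CPM early and 22.4, 24.4 and 22.3 CPM late. The passages overlapped and the log2 fold change was -0.03 (SE 0.08, edgeR adjusted p = 0.728), although with library sizes only it was called lower at -0.36.

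In the trunk of the pathway, from aldolase to pyruvate kinase, 9 of the 12 genes rose, and the mutases Pgam2 and Bpgm and the enolase Eno3 fell. Aldoa, the aldolase of muscle and most other tissues, measured 648, 745 and 792 CPM early and 3019, 2870.0 and 2593 CPM late. Aldoc, the aldolase of brain, measured 14.6, 19.4 and 20.0 CPM early and 190, 184 and 164 CPM late. Aldoc remained the scarcer of the pair in every library but rose more, 9.91-fold (edgeR adjusted p = 4.6e-09) against 3.88-fold for Aldoa (edgeR adjusted p = 1.19e-08). Tpi1, which interconverts the triose phosphates, rose 2.35-fold, from 556, 631 and 633 CPM to 1417, 1448.5 and 1412 CPM (edgeR adjusted p = 1.22e-08). Pgk1, the kinase that makes the first ATP of the pathway, measured 595, 667 and 704 CPM early and 2771, 2592 and 2329 CPM late. It rose 3.91-fold (edgeR adjusted p = 7.16e-09).

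Gapdh, the glyceraldehyde phosphate dehydrogenase that is widely used as a reference gene, was itself higher at passage 20. It measured 198, 213 and 216 CPM early and 992, 961 and 768 CPM late, and the groups did not overlap. The mean rose from 209 ± 9.78 to 907 ± 121 CPM (SD, n = 3 each), 4.34-fold (edgeR adjusted p = 4.51e-08). The gene has many processed copies: 82.5% of the stretches of 50 bases in its coding transcript also occur in transcripts of 222 other genes. The sources used here do not say how reads that match several places were counted, so the absolute level of Gapdh is uncertain. The same limit applies to Eno1 (72.2% shared, mostly with Eno1b), Pgk1 (68.0%), Pgam1 (41.5%) and Pkm (34.4%), and less to Pdhb (30.3%), Mpc1 (29.6%), Ldhb (27.0%), Pdha1 (16.9%), Ldha (16.6%) and Aldoa (13.5%). Adding the counts of the annotated copies named after a member left 30 members higher and 5 lower. For Gapdh these copies held only 34 and 4 counts, against 39875 for the gene itself. Copies under other names were not added, and reads lost to multiple matches are not recovered, so this does not remove the limit.

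The mutase step showed opposite changes. Pgam1, the brain form that most tissues use, measured 312, 371 and 380 CPM early and 1091, 1059.5 and 1042 CPM late, a 3.00-fold rise (edgeR adjusted p = 9.37e-09). Pgam2, the muscle form, measured 8.17, 7.64 and 11.0 CPM early and 3.86, 4.38 and 5.67 CPM late, a 1.92-fold fall (edgeR adjusted p = 0.000969). Bpgm makes the bisphosphoglycerate that lowers the oxygen affinity of haemoglobin in red cells. Its 3 early libraries lay at 29.6, 27.0 and 27.6 CPM and its late libraries at 10.9, 9.84 and 10.0 CPM. All late libraries were below all early ones for Pgam2 and for Bpgm. The mean of Bpgm fell from 28.1 ± 1.34 to 10.3 ± 0.557 CPM (SD, n = 3 each), 2.74-fold (log2 fold change -1.45, SE 0.09, edgeR adjusted p = 1.03e-07).

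Of the enolases, Eno1, the ubiquitous form, measured 872, 986 and 1009.9 CPM early and 3238, 3298 and 2888 CPM late. Eno2, the neuronal form, measured 38.6, 40.9 and 43.0 CPM early and 146, 154 and 119 CPM late. Eno3, the muscle form, measured 70.2, 73.9 and 75.8 CPM early and 52.6, 53.5 and 55.8 CPM late. The first 2 rose by a similar factor, 3.29-fold for Eno1 (edgeR adjusted p = 4.9e-09) and 3.41-fold for Eno2 (edgeR adjusted p = 5.87e-08), and Eno3 fell 1.36-fold (edgeR adjusted p = 6.26e-05). Eno2 was below Eno3 in every early library and above it in every late one, in CPM without regard to gene length. Pkm, which encodes both the M1 and the M2 pyruvate kinase by alternative splicing, measured 1054, 1097.5 and 1173 CPM early and 3351, 3385 and 3183 CPM late. It rose 2.98-fold (edgeR adjusted p = 1.62e-09). Counts per gene do not separate the M1 and M2 forms, and an unclassified gene on the same strand that shares 767 exon bases with Pkm held 12925 counts.

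At the lactate branch, Ldha, the subunit that favours lactate formation, measured 853, 991 and 1003 CPM early and 2897, 2862 and 2760.1 CPM late, a 2.99-fold rise (edgeR adjusted p = 4.83e-09). Ldhb, the heart subunit, measured 59.6, 57.8 and 60.5 CPM early and 74.8, 75.6 and 72.9 CPM late. Its 1.26-fold rise with TMM scaling (edgeR adjusted p = 0.000337) was absent with library sizes only, where the log2 fold change was -0.0031. The lactate exporter Slc16a3 (MCT4), typical of glycolytic cells, measured 243, 325 and 347 CPM early and 1141, 1105 and 1164 CPM late. Slc16a1 (MCT1), which carries lactate and pyruvate either way, measured 53.0, 53.9 and 55.7 CPM early and 171, 173 and 161 CPM late. All late libraries of both transporters exceeded all early ones. The rises were 3.72-fold for Slc16a3 (edgeR adjusted p = 1.83e-06) and 3.11-fold for Slc16a1 (edgeR adjusted p = 1.17e-09). Their glycoprotein partner Bsg, named here after its values were seen, rose 4.56-fold, from 521 ± 25.2 to 2377 ± 304 CPM (SD, n = 3 each).

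The pyruvate dehydrogenase kinases inhibit the complex, and 3 of the 4 rose while 1 fell. Pdk3 measured 42.8, 48.7 and 44.6 CPM early and 138, 131 and 128 CPM late, a 2.91-fold rise (edgeR adjusted p = 5.17e-09). Pdk4, the form induced by fasting and fatty acids, measured 7.29, 9.73 and 8.69 CPM early and 35.1, 31.9 and 27.3 CPM late, a 3.65-fold rise (edgeR adjusted p = 1.89e-07). Pdk1, a known target of the hypoxia-inducible factors, rose 1.64-fold, from 113, 148 and 158 CPM to 215, 222 and 250 CPM (edgeR adjusted p = 0.000766). Pdk2, the broadly expressed form, fell 1.38-fold, from 14.7, 13.5 and 17.1 CPM to 12.2, 11.3 and 9.62 CPM (edgeR adjusted p = 0.00677). In none of the 4 did the passages overlap.

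Among the subunits of the complex itself, Pdha1, the catalytic alpha subunit that the kinases phosphorylate, measured 116, 112 and 116 CPM early and 171, 183 and 173 CPM late. It rose 1.53-fold (edgeR adjusted p = 9.94e-07). Pdhb, the beta subunit, measured 78.5, 72.6 and 75.1 CPM early and 87.0, 87.8 and 81.1 CPM late, called 1.13-fold higher with TMM scaling (edgeR adjusted p = 0.0197) and lower with library sizes only, at -0.15. Dlat, the acetyltransferase core, measured 90.9, 94.0 and 97.4 CPM early and 103, 113 and 106 CPM late, called 1.14-fold higher with TMM scaling (edgeR adjusted p = 0.0106) and lower with library sizes only, at -0.14. The Pdhb call was also lost on leaving out passage 3 replicate 2 or 3 or passage 20 replicate 1 or 2, with a log2 fold change of 0.14 to 0.16, and the Dlat call was lost without passage 3 replicate 1, at 0.15. Mpc1 and Mpc2 form the mitochondrial pyruvate carrier. Mpc2 measured 24.8, 25.6 and 24.8 CPM early and 29.9, 27.2 and 27.2 CPM late and did not pass the test (log2 fold change 0.17, SE 0.08, edgeR adjusted p = 0.0695), and with library sizes only its sign was reversed, at -0.17. Mpc1 was near the floor of the filter, with 270 counts in all libraries together. It measured 2.47, 2.53 and 3.29 CPM early and 5.15, 4.47 and 2.30 CPM late, so that passage 20 replicate 3 lay below every early library. The log2 fold change was 0.49 (SE 0.27, edgeR adjusted p = 0.129), and without that library Mpc1 was called higher at 0.77 (edgeR adjusted p = 0.000843).

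To compare isozymes within a step, each level was divided by the length of the gene's exons and expressed as a share of the step's summed CPM per kb. The make-up of most steps differed between the passages. The 2 subunits that gained most were Pfkfb3, from 60.1% ± 4.35 to 88.7% ± 0.587 of its step, and Pfkp, from 12.0% ± 0.354 to 32.8% ± 2.10 (SD, n = 3 each). Hk2 gained 17.37 points at the expense of Hk1. Its share was 38.7, 43.7 and 46.2% early and 59.3, 61.2 and 60.2% late. Slc2a3 gained 16.36 points and reached 30.2% of glucose transport, while Slc2a1 fell from 82.9 to 69.6%. Pdk3 gained 13.76 points and Pdk1 lost 10.21. Eno1 gained 12.84 points and stood at 90.6% late, while Eno3 fell from 18.5 to 4.84%. Pgam1 rose from 90.6 to 98.5%.

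Other isozymes lost share although their own level rose or did not pass the test. Pfkfb4 went from 27.1 to 6.05% and Pfkm from 28.1 to 14.8%. Pfkl went from 60.0 to 52.4%, a loss of 7.55 points, and still led its step. Ldhb went from 11.7 to 5.24% of lactate dehydrogenase. Smaller gains were those of Aldoc, from 2.15 to 5.36%, and Slc16a3, from 82.1 to 84.9%. In these 16 shares the passages did not overlap, and each two-sided exact permutation test gave p = 0.1, the smallest possible. Over 32 pairs of genes in the same step, subunits of 1 complex or carrier included, 28 log2 ratios did not overlap between the passages; of single genes, 77.5% did not overlap, and the share over all gene pairs was not computed (exact permutation p = 0.1 each, 0.114 after Benjamini-Hochberg adjustment over the 32). The exceptions were Pgam2 with Bpgm, Eno1 with Eno2, Pdhb with Dlat, and Mpc1 with Mpc2. A ratio of 2 genes in the same library does not depend on the scaling.

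Which isozyme led a step late depended on how length was treated. Hk2 held 60.2% per kb of all exons and 51.4% without length correction, but 45.1% per kb of the longest transcript. Pfkl led per kb of exon, whereas without length correction Pfkp held 52.4% and Pfkl 41.7%. Pdk3 led per kb, at 55.2%, whereas Pdk1 held 56.7% without length correction against 32.8% for Pdk3. The direction of each of the 16 shifts was the same under all 3 treatments. A gene's length is the same in all libraries, so in hexokinase, aldolase, lactate dehydrogenase and monocarboxylate transport it could not alter the direction. The same holds for the isozyme with the largest or smallest fold change of its step. For those shifts the agreement is not a check.

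**Figure D3:**
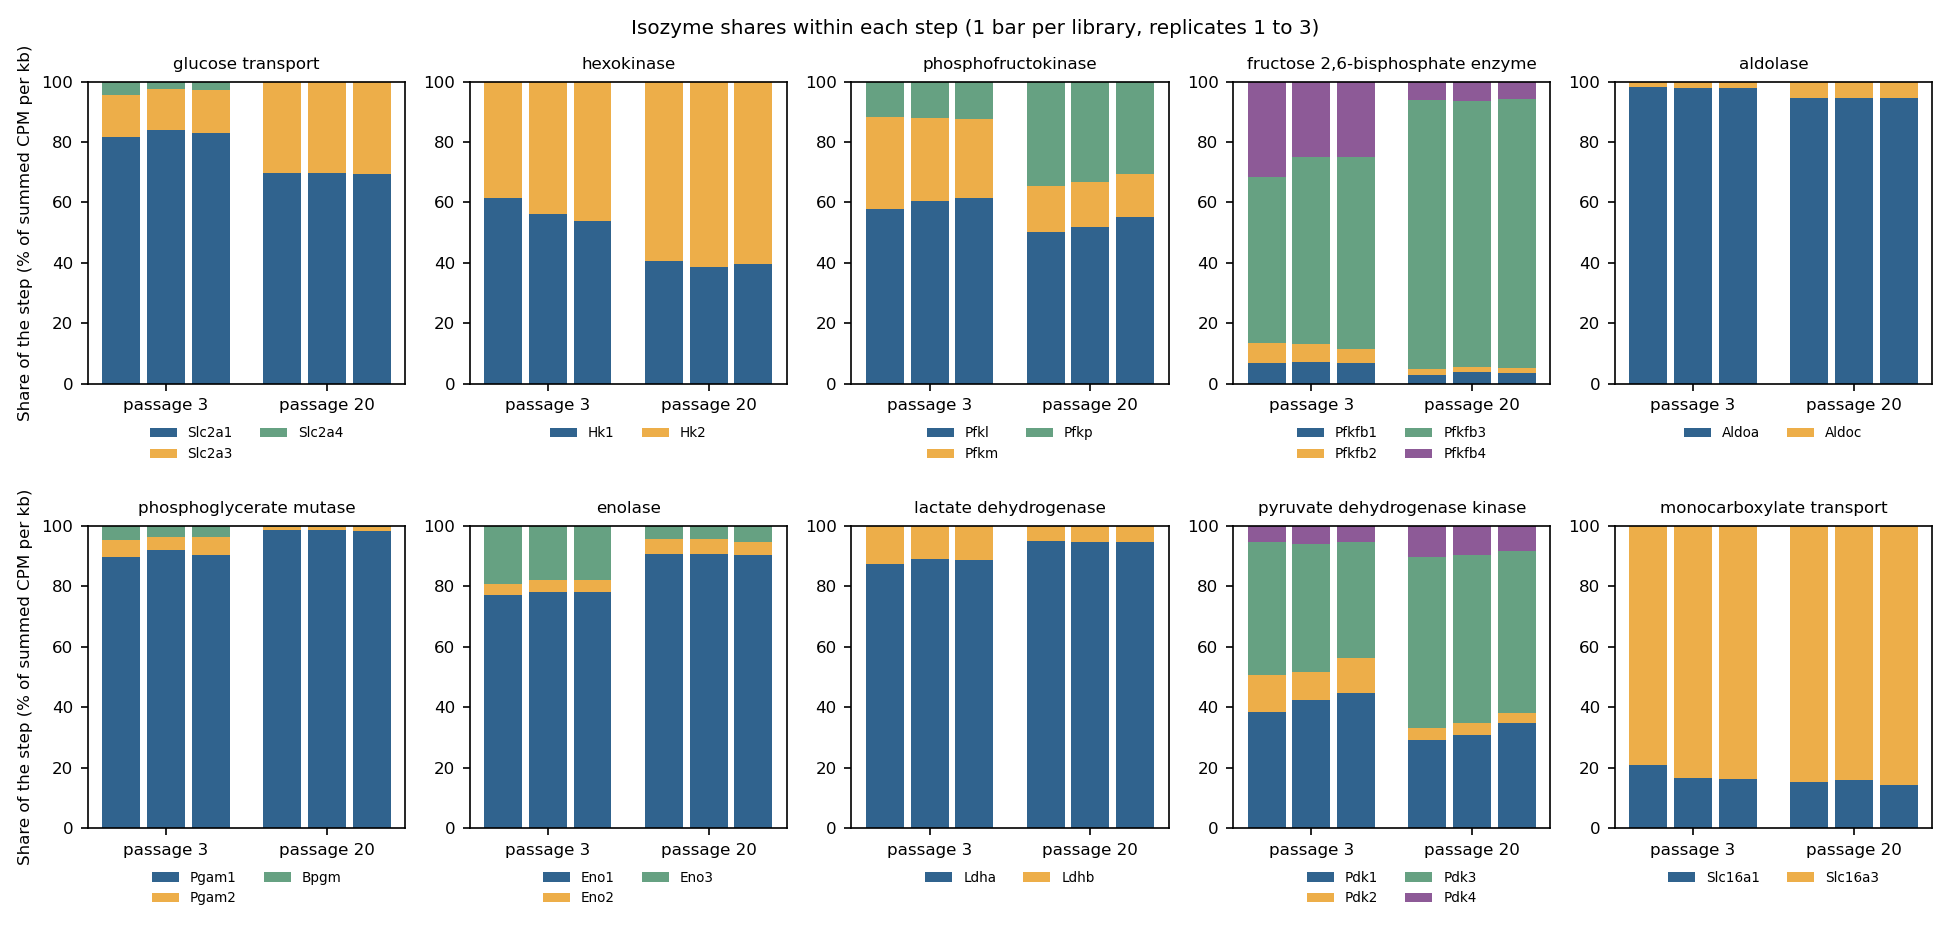
Share of each isozyme (percent of the step's summed CPM per kb of exon) in 10 steps, with 1 stacked bar per library and passage 3 on the left of each panel. Hk2, Pfkp, Pfkfb3 and Slc2a3 take larger parts of the late bars, and Eno3, Pfkm and Pfkfb4 smaller ones.

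Summed over isozymes, the steps up to the isomerase changed most, and the pyruvate dehydrogenase complex and the pyruvate carrier changed least. Glucose transport went from 93.2 ± 16.7 to 788 ± 31.9 CPM per kb (SD, n = 3 each), a ratio of 8.45. The ratio was 6.98 for hexokinase and 5.59 for the isomerase. The aldolase step followed at 4.01 and glyceraldehyde phosphate dehydrogenase at 4.34, and the PFKFB enzymes also stood at 4.34. The ratio was 3.14 for phosphofructokinase, 3.91 for phosphoglycerate kinase, 2.98 for pyruvate kinase and 2.79 for lactate dehydrogenase. Triose phosphate isomerase had the lowest ratio of the cytosolic steps, 2.35. Monocarboxylate transport rose by a ratio of 3.62. The pyruvate dehydrogenase kinases stood at 2.18 and the complex at 1.31, from 69.5 ± 1.30 to 91.1 ± 3.27 CPM per kb. The mutase and enolase steps stood at 2.76 and 2.82. In all 16 steps other than the pyruvate carrier the passages did not overlap (exact permutation p = 0.1 each). Of all tested genes taken singly, 77.5% did not overlap either. The pyruvate carrier had a ratio of 1.21, overlapping libraries and an exact permutation p = 0.2.

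**Figure D4:**
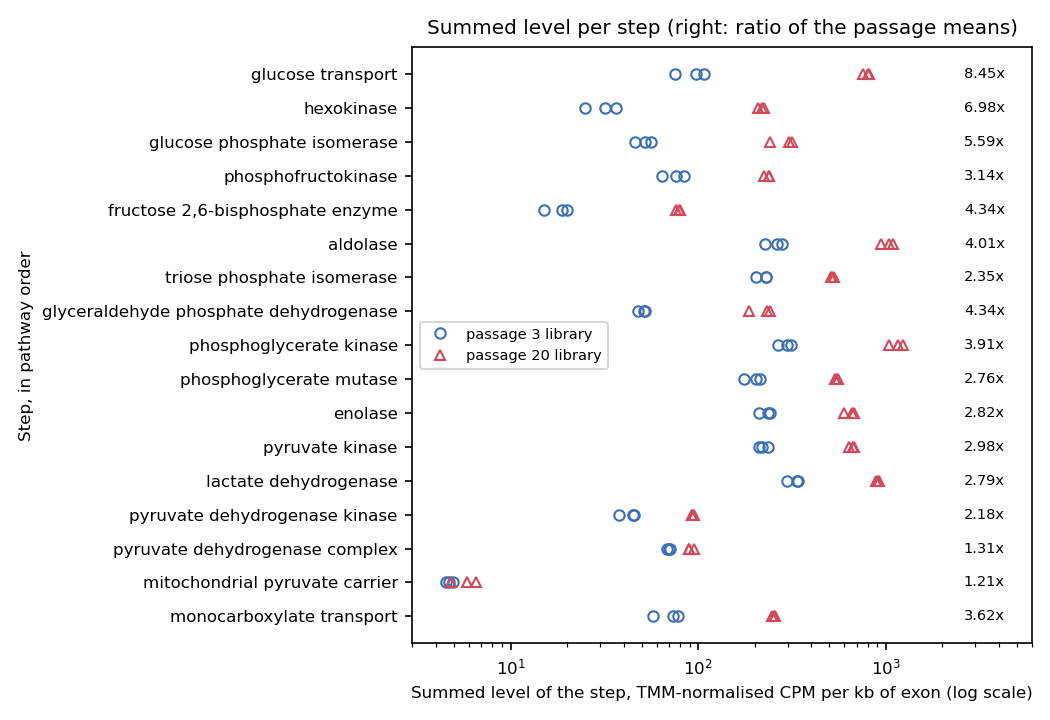
Summed level of each step (TMM-normalised CPM per kb of exon, log axis), with 1 circle per passage 3 library and 1 triangle per passage 20 library, and the ratio of the passage means at the right. Ratios run from 8.45 for glucose transport to 1.21 for the mitochondrial pyruvate carrier, the one step in which the libraries overlap.

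The set also varied within each passage. At passage 3, replicate 1 held the lowest value in 29 of the 38 genes (76.3%) and in 38.3% of all tested genes, and replicate 3 held the highest in 29 of 38 against 34.9% of all. Among the 30 members called higher, the median ratio to the passage mean was 0.897 in replicate 1 and 1.07 in replicate 3. At passage 20, replicate 3, the library that stood apart, was lowest in 25 of 38 (65.8%, against 39.7% of all genes).

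Of 26 further glycolysis and pyruvate genes, which include transporters and their partner glycoproteins such as Bsg, 18 were tested, of which 7 were called higher, 9 lower and 2 neither, with a median log2 fold change of -0.04. Of all tested genes, 37.0% were called higher and 37.3% lower. With library sizes only, 3 of the 18 were called higher. Of the called genes that averaged 5 CPM or more in either passage, the one with the largest fall was Pdp1, a phosphatase that reactivates the pyruvate dehydrogenase complex, from 15.1 to 4.79 CPM (log2 fold change -1.62). Named after their values were seen, the phosphatase regulator Pdpr fell from 28.5 to 17.0 CPM and the complex component Pdhx from 36.6 to 26.6 CPM. The other phosphatase, Pdp2, was not called with TMM scaling, at 21.6 and 23.1 CPM, and was called lower with library sizes only, at -0.24.

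The counts of the next 3 lists stand beside 37.0% of all tested genes called higher and 37.3% called lower. In gluconeogenesis and the other fates of pyruvate, 7 of 12 genes were tested, with 6 called higher and 1 lower. The mitochondrial carboxykinase Pck2 rose from 45.2 to 129 CPM, and the alanine aminotransferase Gpt fell from 6.83 to 2.39 CPM. In the pentose phosphate pathway, which branches from glucose phosphate, 6 of 8 genes were called higher and 0 lower, led by the transketolase Tkt, from 287 to 667 CPM, whereas with library sizes only 2 were higher and 1 lower. Of 16 tricarboxylic acid cycle genes, 9 were called higher and 5 lower, with a median of 0.14, and 4 higher and 10 lower with library sizes only. The isocitrate dehydrogenase subunit Idh3b rose from 92.6 to 153 CPM, and Dlst, of the oxoglutarate dehydrogenase complex, fell from 193 to 116 CPM.

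Of 14 regulators of glycolytic genes, 11 were called higher, 2 lower and 1 neither, beside 37.0% higher and 37.3% lower of all tested genes. The prolyl hydroxylase Egln3, which marks the hypoxia-inducible factors for breakdown and is itself one of their known targets, rose most, from 54.4 ± 13.7 to 720.3 ± 57.5 CPM (SD, n = 3 each, log2 fold change 3.72, edgeR adjusted p = 3.19e-06). Of its relatives, named after their values were seen, Egln1 rose from 95.1 to 412 CPM and Egln2 was called lower, from 70.2 to 36.7 CPM. The factors themselves changed less. Hif1a went from 190 to 241 CPM (log2 fold change 0.35, not called with library sizes only), and Epas1 rose from 12.3 to 19.2 CPM (0.63). Hif1a overlaps an antisense gene, so its level is uncertain without a strand setting. Myc, which activates many glycolytic genes, measured 10.5, 9.92 and 10.0 CPM early and 20.6, 20.2 and 36.2 CPM late, highest in the library that stood apart. Txnip, which limits glucose uptake, went from 282 to 345 CPM (log2 fold change 0.29, not called with library sizes only). Mlxip, which senses glucose phosphates, fell from 98.1 to 50.7 CPM. Of 5 splicing regulators of Pkm, 2 were called higher and 2 lower: Hnrnpa1 rose from 766 to 1188 CPM, and Srsf3 fell from 277 to 135 CPM. An effect on the splicing of Pkm was not tested.

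Markers of other cell types were counted because several of the isozymes are named for tissues. Their calls stand beside 37.0% higher and 37.3% lower of all tested genes. Cardiomyocyte markers summed to 12.7 to 14.1 CPM early and 10.4 to 12.4 CPM late, with Myl2 at 0 (2 of 5 tested genes higher, 2 lower). Skeletal muscle markers summed to 13.2 to 15.1 and 21.05 to 24.5 CPM, with Myf5 and Myf6 at 0 (2 of 5 higher, 1 lower). Acta1 rose from 2.03 to 11.6 CPM and Myh3 from 1.84 to 6.92 CPM, and Myh8 fell from 7.03 to 0.363 CPM. Among the isozymes described above as forms of muscle, Pgam2, Eno3 and Slc2a4 fell, whereas Pfkm, Aldoa, Hk2 and Pfkfb1 rose. Neuronal markers summed to 118 to 125 and 118 to 137 CPM (3 of 8 higher, 3 lower), beside the rises of Slc2a3, Aldoc and Eno2. Erythroid markers summed to 2.93 to 3.93 and 7.36 to 8.41 CPM (1 of 2 higher), with Hba-a2 and Hbb-bt at 0, beside the fall of Bpgm. Most of the erythroid rise was that of Epor, from 1.82 to 6.01 CPM. Adipocyte markers summed to 1.65 to 1.91 and 12.4 to 17.6 CPM, with Fabp4 the 1 gene tested (0.826 to 12.9 CPM) and Lep at 0.

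Endothelial markers summed to 17.2 to 20.0 and 11.6 to 12.3 CPM (1 of 4 higher, 2 lower, Emcn at 0). Immune markers summed to 7.99 to 9.63 and 9.55 to 11.9 CPM (1 of 3 higher), with Ptprc, Itgam and Cd3e at 0. Fibroblast markers summed to 13560 to 14279 and 28052 to 33348 CPM (6 of 8 higher, 2 lower), and epithelial markers to 95.5 to 100.4 and 290.7 to 328 CPM (7 of 8 higher). The skeletal muscle, erythroid, adipocyte, fibroblast and epithelial sums were higher at passage 20, as most glycolytic genes were. The endothelial and cardiomyocyte sums were lower, the cardiomyocyte sum by a narrow margin. Their part in these results was not tested.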

How the data were processed

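The 6 RNA-seq libraries of ciCPCs were grouped by the passage in the labels, 3 per passage. For the build GRCm38, the submitters' processing notes list DESeq2, HTSeq, SAMtools and HISAT2 2.0.5, without saying what each did, and the sources used here give neither annotation release nor strandedness. Raw read counts per gene are the values the authors deposited for each library. They also deposited values on a log2 scale, whose transformation is not stated and which served as an alternative only.

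Members were matched by symbol through GENCODE M21 on GRCm38, which paired 53706 of 53801 identifiers (the other 95 took 0.00623% of counts). Of 2 genes named Aldoa, the one with more transcripts was used. Counts were filtered with filterByExpr (15143 genes left), scaled with TMM factors (1.12 to 1.13 at passage 3, 0.873 to 0.917 at passage 20) and entered edgeR 4.0.16 under R 4.3.3, whose quasi-likelihood test was used with robust dispersions. Calls were made at a Benjamini-Hochberg adjusted p of 0.05. Across genes, the biological coefficient of variation was 7.05%. Alternatives used DESeq2 1.42.0, limma 3.58.1, other scalings and filters, and each library left out. Shares were tested with SciPy 1.17.1, and ratios used a pseudocount of 0.5. Counting error is covered by the spread between samples.

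All 38 members are named whatever their result. Of each other list, the called genes with the largest rise and fall at a mean of at least 5 CPM are named, and 4 regulators always; 1 gene this rule names is not reported here. The members and lists were chosen with earlier results of these data known. Same-numbered samples did not deviate together (correlations of 0.01, -0.03 and 0.05), so replicate numbers were not treated as pairs.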

Additional observations from a re-analysis of the deposited data

How the results depend on the processing

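Of 570 refitted fold changes of the members, 555 kept their direction and side of the threshold, 9 fell below it, 2 passed it and 4 reversed. The reversals came with library sizes only: Ldhb -0.0031, Pdhb -0.15, Dlat -0.14 and Mpc2 -0.17. That setting also called 3528 of all genes higher and 8273 lower, against 5604 and 5641, called 8 members lower, and gave 3 higher among the other glycolysis and pyruvate isozymes, 2 higher and 1 lower in the pentose phosphate pathway, and 4 higher and 10 lower in the tricarboxylic acid cycle. The count of Pkm splicing regulators called lower was 1 with the deposited log2 values and with a threshold of 0.01, and 1 to 2 on leaving out a library. Leaving out a library left 28 to 31 members higher and 5 to 5 lower. Without length correction the shares shifted by -19.62 points (Slc2a1), 22.28 (Slc2a3), -19.42 (Pfkl), -8.46 (Pfkm), 27.88 (Pfkp), 23.14 (Pfkfb3), -16.13 (Pfkfb4), 3.56 (Aldoc), 4.88 (Eno1), -5.23 (Eno3), -3.35 (Ldhb) and 10.89 (Pdk3). Per kb of the longest transcript they shifted by 17.04 (Slc2a3), -9.96 (Pfkm), 2.06 (Aldoc), 8.83 (Pgam1), 6.38 (Eno1), -6.68 (Eno3) and -4.51 (Ldhb), and with copies added by 11.51 (Eno1) and -12.23 (Eno3). The members' share of all counts rose by 2.20 points with TMM-scaled library sizes. With the replicate number as a block, 5521 genes were called higher and 5582 lower, and no member's call changed. The cause of these shifts was not tested. Depth was lowest for Mpc1 (270 counts over the 6 libraries), followed by Pfkfb1 and Pgam2 (623 each), Pfkfb2 (695) and Slc2a4 (768).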
